A study of Mus musculus with 13 samples.

Results

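Left ventricular muscle from outside the ischaemic zone was compared between mice with a permanent ligation of the left anterior descending coronary artery (LAD) that received FG-3149, a mouse monoclonal antibody against connective tissue growth factor (CTGF), and mice with sham surgery. The comparison rested on the 8 libraries titled for these groups, 5 with FG-3149 and 3 sham, out of 13 in the series. It took every gene with enough reads for a test, which was 13434 of 35793 gene entries. The other 5 libraries came from mice with the same ligation and a control antibody, which the labels call a mouse anti IgG antibody (IgG below). They are used to show where FG-3149 differed from it. They also entered the shared fit of all 13 libraries, and with it the gene filter and the estimate of spread behind the comparison with sham. All mice were C57BL/6JO1aHsd, 8 to 10 weeks old when treatment started, and all groups carried the time point 1W+6W, which the labels do not spell out. The labels give 10 mg/kg for both antibodies, whereas sham mice were labelled as having no treatment. Sham mice had neither the ligation nor an antibody, so what the ligation and what FG-3149 contributed to a difference from sham cannot be told apart.

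CTGF, also named CCN2, is a secreted protein of the CCN family that sits in the extracellular matrix, binds growth factors and integrins, and is induced by TGF-beta and by stretch in cardiac fibroblasts and muscle cells. In the ventricle that remains after an infarct, fibroblasts become activated and lay down collagen, and muscle cells under load re-express natriuretic peptides and fetal contractile genes while fatty acid oxidation declines. An antibody binds the protein, so the level of Ctgf mRNA is not a check of the labels. In bulk tissue, fewer cells of a type and less RNA per cell cannot be told apart.

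Library totals were 10954920 to 12794823 estimated counts with FG-3149 and 12025880 to 14999813 in sham. The first principal component held 46.8% of the variance in log2 CPM (counts scaled to equal library totals), with scores of -46.1 to -41.5 in sham and 8 to 12.3 with FG-3149. Genes with high GC content were read relatively more in the FG-3149 libraries: the median deviation of genes with at least 58.3% GC minus that of genes with at most 42.1% GC was 0.08 to 0.17 (log2) with FG-3149 and -0.3 to -0.11 in sham, with no overlap. The part of this lean in the results below was not tested beyond a refit with each library's GC trend removed. Its counts are given for all genes, and for a gene list only where a count above 1 moved by over 1.5 times. Cardiac muscle markers fitted the tissue label, with a summed level of 119721 to 128595 CPM in sham and 104143 to 115794 CPM with FG-3149 over 15 genes, none of which was at 0. Lymphocyte markers, with Trac at 0 in all libraries, summed to 18.6 to 20.4 CPM in sham and 15.5 to 19.0 CPM with FG-3149.

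Infarcted hearts under FG-3149 differed from sham hearts in 3959 of 13434 genes, 29.5% of those tested (adjusted p under 0.05). Of these, 2098 genes were higher (15.6%) and 1861 were lower (13.9%), and after removal of the GC trend the numbers were 1955 and 1670. Large differences were mostly upward: 473 genes were higher by more than 2-fold (3.52% of those tested) and 98 were lower by more than 2-fold (0.729%). A gene almost unread in sham could pass the filter on reads through the ligated libraries, which outnumbered sham. The part of this in the imbalance was not tested. The counts in gene lists below stand against the shares over all genes, 15.6% higher and 13.9% lower. In 3430 of the called genes (25.5% of all tested) no FG-3149 library overlapped a sham library. The median log2 fold change over all genes was 0.00, with quartiles of -0.18 and 0.21, and 5448 genes had an unadjusted p under 0.05. The number of lower genes fell to 1166 without sham replicate 1.

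**Figure D1:**
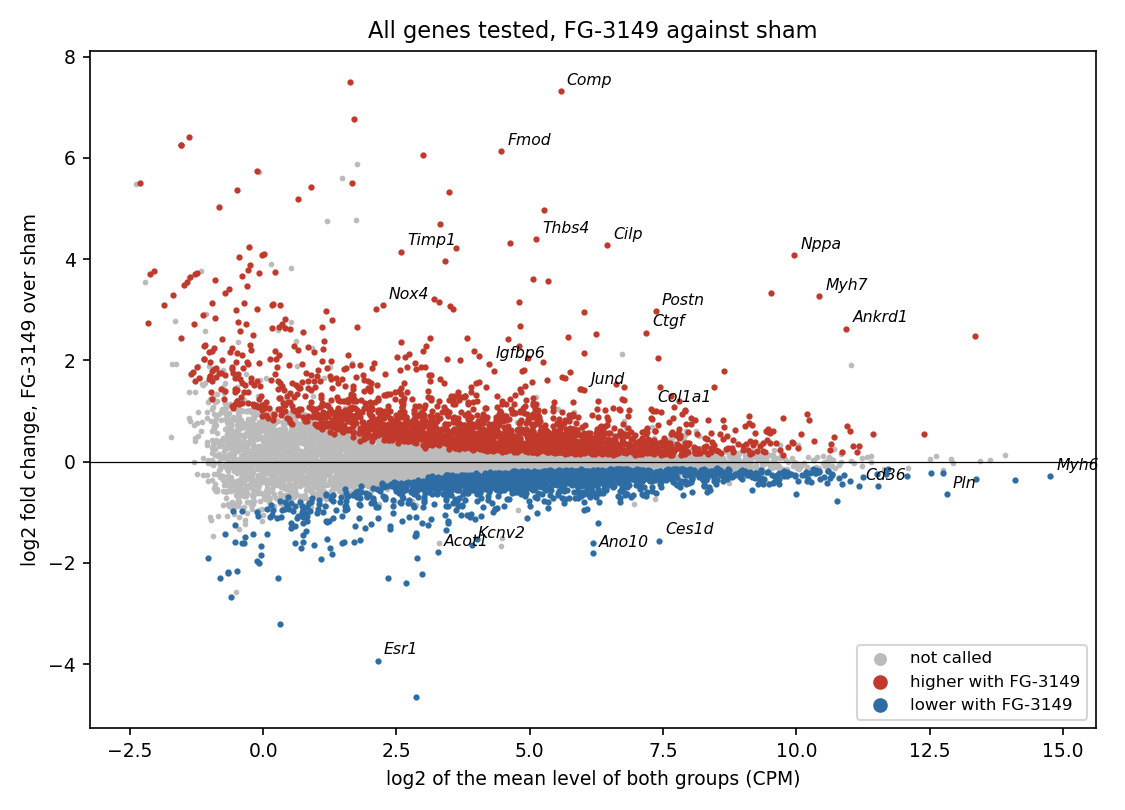
Log2 fold change of FG-3149 over sham (vertical axis) against the log2 mean level of both groups in CPM (horizontal axis) for the 13434 genes tested, with called genes in colour. Matrix and load genes such as Comp, Fmod, Cilp, Nppa and Myh7 form the upper edge, and Esr1, at -3.93, lies near the lower edge.

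Ctgf itself (chr10:24595442-24598682, GRCm38) stayed far above sham in the hearts that received the antibody against its protein. Its level was 37.8, 42.8 and 46.9 CPM in the sham libraries and 286, 325, 183, 234 and 213 CPM with FG-3149. The groups did not overlap, and the mean rose 5.84-fold from 42.5 ± 4.58 (SD, n = 3) to 248 ± 57.1 CPM (SD, n = 5), a log2 fold change of 2.55 ± 0.25 (SE, adjusted p = 5.52e-05). With IgG the mean was 324 CPM, and the log2 difference of FG-3149 from IgG was -0.39 (95% interval for this gene alone -0.75 to -0.02, adjusted p = 0.394), which did not pass the test over all genes. Of the 5 tested members of the CCN family, Ctgf, Wisp2 and Wisp1 rose. Wisp2, which is secreted by fibroblasts, rose 11.9-fold (6.22 ± 0.642 to 74.4 ± 18 CPM, adjusted p = 1.39e-04). Wisp1, a WNT-induced member, rose 2.75-fold (adjusted p = 5.60e-04). Cyr61, which like Ctgf is an early target of stretch signalling, stood at 57.1 ± 7.12 CPM in sham and 71.3 ± 9.15 CPM with FG-3149 (adjusted p = 0.0875). Nov stood at 3.26 ± 0.346 and 3.60 ± 0.995 CPM (adjusted p = 0.665).

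**Figure D2:**
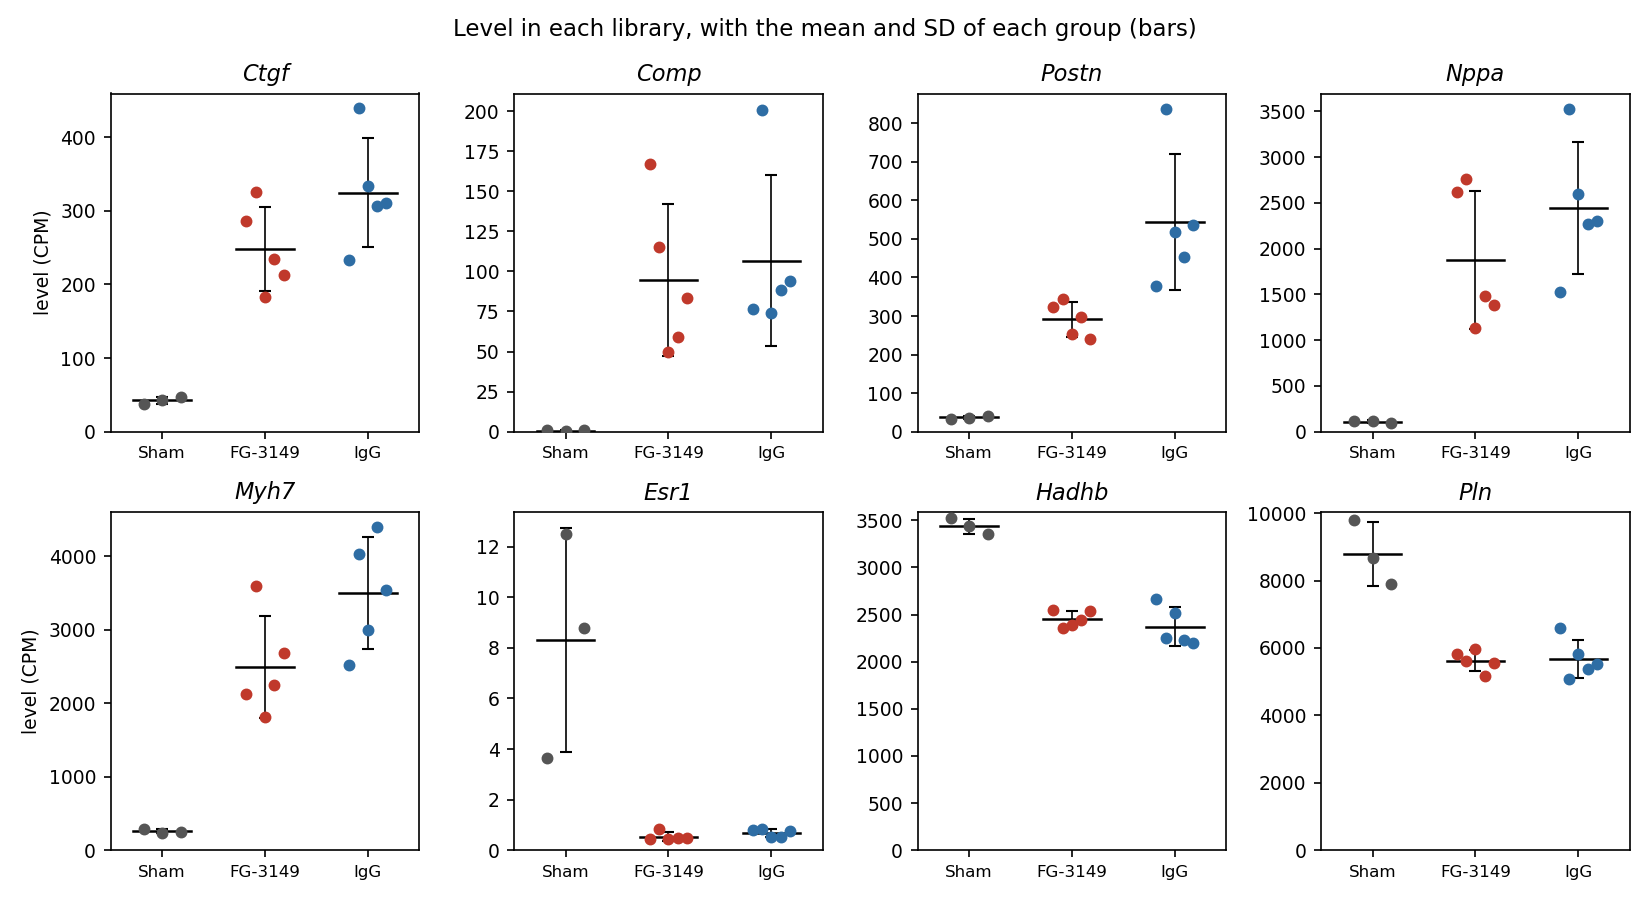
Level in CPM of 8 genes in each library (points), with the mean and SD of each group (bars), for sham, FG-3149 and IgG. Ctgf, Comp, Postn, Nppa and Myh7 are higher in every FG-3149 library than in every sham library, and Esr1, Hadhb and Pln are lower in every one.

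The 15 genes with the highest fold changes, taken from called genes that averaged 1 or more in log2 CPM and whose groups did not overlap, included Comp, Fmod, Cilp, Cilp2, Ltbp2, Thbs4, Col8a2 and Col12a1, which encode proteins of the extracellular matrix. Comp, a pentameric matrix protein of cartilage, stood at 0.795, 0.203 and 0.829 CPM in sham and at 167, 115, 50, 58.9 and 83.2 CPM with FG-3149. All 5 FG-3149 libraries lay far above sham, and replicates 1 and 2 were the highest. Its log2 fold change was 7.32 ± 0.89 (adjusted p = 2.45e-04). Fmod, which encodes the collagen-binding proteoglycan fibromodulin, stood at 0.636, 0.677 and 0.497 CPM in sham and at 68.2, 65.1, 23.4, 27.1 and 33.7 CPM with FG-3149 (log2 fold change 6.14 ± 0.81, adjusted p = 3.74e-04). Cilp, a cartilage intermediate layer protein that is made by cardiac fibroblasts, stood at 8.19, 8.94 and 8.54 CPM and at 204, 199, 134, 157 and 138 CPM, a 19.4-fold rise (adjusted p = 3.96e-06). Replicates 1 and 2 of the FG-3149 group were the 2 highest libraries of that group in 14 of these 15 genes.

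Some of these genes were almost unread in sham, so their ratios carry wide intervals. Cilp2 had 3 counts over the 3 sham libraries and 218 over the FG-3149 libraries, a ratio of 48.7 after scaling (95% exact interval 16.4 to 238, which covers counting error only). The gene listed as 1500015O10Rik, which encodes the secreted peptide precursor Ecrg4, had 1 and 375 counts (ratio 251, interval 44.8 to 9949.5). Col8a2 had 9 and 941 counts (ratio 70.0, interval 36.7 to 154). Atp6v0a4, a subunit of the vacuolar proton pump best known from the kidney, had 3 and 182 counts (ratio 40.6, interval 13.7 to 199). Each of these 4 genes was called (adjusted p of 3.46e-06 for Atp6v0a4, 4.19e-05 for Cilp2, 0.00187 for Col8a2 and 0.00391 for 1500015O10Rik). Col8a2 was not called with voom (adjusted p = 0.0620).

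Of the 12 tested genes of cartilage and bone matrix, 10 were higher and none lower, with a median log2 fold change of 2.39. The 10 include Comp, Fmod, Cilp, Cilp2 and 1500015O10Rik from above. As the list was also chosen with earlier results of these data known, its count is not a separate finding. Besides those above, Spp1, which encodes osteopontin, rose 7.0-fold from 0.327 ± 0.145 to 2.34 ± 1.13 CPM (adjusted p = 0.00184), a call that was lost on the RPKM scale. Sox9, the transcription factor of cartilage formation, rose 2.10-fold (adjusted p = 0.00445). Matn2, a matrilin, rose 1.52-fold (adjusted p = 3.55e-04).

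Collagen genes were higher in 16 of 20 cases, with log2 fold changes of the 16 from 0.32 to 6.06 and a median over all 20 of 0.94. The fibrillar chains make up most scar collagen. Of these, Col1a1, at 96.7, 94.5 and 110.4 CPM in sham, reached 235, 238, 212, 162 and 191 CPM with FG-3149. The 2 groups did not overlap, and the log2 fold change was 1.05 ± 0.22 (adjusted p = 0.00476). Col1a2 changed by 1.09 ± 0.17 (adjusted p = 8.64e-04) and Col3a1 by 0.83 ± 0.24 (adjusted p = 0.0247), and the Col3a1 call was lost without any 1 of the 3 sham libraries (adjusted p of 0.0560 to 0.0882) and without FG-3149 replicates 1 and 2 (adjusted p = 0.0939). Among the chains of short and fibril-associated collagens, Col8a1 rose 4.45-fold (23.9 ± 0.839 to 106 ± 9.37 CPM, adjusted p = 1.09e-05) and Col14a1 rose 3.53-fold (adjusted p = 6.22e-04). Col12a1, another fibril-associated chain, rose from 0.567 ± 0.505 to 21.8 ± 8.06 CPM (log2 fold change 5.33 ± 0.72, adjusted p = 4.25e-04), and its log2 fold change was 4.74 without sham replicate 2 and 6.19 without sham replicate 3. The basement membrane chains Col4a1 and Col4a2, which were read at 697 ± 72.7 and 529 ± 55.5 CPM in sham, had log2 fold changes of 0.24 ± 0.15 and 0.22 ± 0.13 (adjusted p = 0.240 and 0.218). Both were called when only the FG-3149 and sham libraries were fitted (adjusted p = 0.0222 and 0.0192).

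Enzymes that process and crosslink collagen were higher in 13 of 20 cases and lower in none, with a median of 0.35. Pcolce2, which speeds the removal of the procollagen tail, rose 2.14-fold (adjusted p = 1.31e-05). Loxl1, a lysyl oxidase that crosslinks elastin and collagen, rose 2.70-fold (adjusted p = 6.69e-04), and its relative Loxl4 rose 3.15-fold (adjusted p = 1.35e-04). Adamts2, which trims procollagen, rose 2.50-fold (adjusted p = 0.00133). P4ha1, a subunit of the proline hydroxylase of collagen, rose 1.31-fold (adjusted p = 0.00312).

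Matrix proteins other than collagens were higher in 26 of 32 cases, and the median log2 fold change was 1.00. Postn, the periostin gene and a marker of activated cardiac fibroblasts, stood at 33.6, 36.0 and 41.7 CPM in sham and at 324, 345, 253, 298 and 239.6 CPM with FG-3149. The lowest FG-3149 library was well above the highest sham library, and the rise was 7.87-fold (log2 2.98 ± 0.27, adjusted p = 3.97e-05). Thbs4, a thrombospondin induced in loaded muscle, rose 21-fold from 3.16 ± 0.137 to 66.5 ± 25.3 CPM (adjusted p = 1.16e-04). Bgn, which encodes the proteoglycan biglycan, rose 3.49-fold (179 ± 14.6 to 624 ± 42.2 CPM, adjusted p = 2.72e-05). Ogn, another small proteoglycan, was the 1 member called lower (log2 fold change -0.36 ± 0.12, adjusted p = 0.0364), a call that was lost in 12 of 24 alternative settings.

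Markers of activated fibroblasts were higher in 15 of 19 cases, at a median of 2.19. Runx1, a transcription factor of activated fibroblasts, rose 3.77-fold (1.48 ± 0.302 to 5.56 ± 1.09 CPM, adjusted p = 5.28e-05). Acta2, the smooth muscle actin by which activated fibroblasts are often recognised, had a value of 0 in each of the 13 libraries and is left out here. Markers of resting fibroblasts were higher in 10 of 16 cases, at a median of 0.38. Pi16, a marker of adventitial fibroblasts, rose 2.89-fold (50.3 ± 4.85 to 145 ± 9.57 CPM, adjusted p = 3.96e-06), and Gsn, which encodes the actin-severing protein gelsolin, rose 1.39-fold (adjusted p = 2.63e-04). Scara5, a scavenger receptor of the same cells, went the other way and fell to 0.625 of its sham level (37.2 ± 0.208 to 23.3 ± 3.33 CPM, adjusted p = 1.41e-04). The summed level of the resting markers was 2409.9 to 2652 CPM in sham and 3309 to 3782 CPM with FG-3149, and that of the activated markers was 195 to 214 CPM and 903 to 1475 CPM. The part of these cells' number in the matrix results was not tested.

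Genes of TGF-beta ligands, receptors and their partners were higher in 14 of 26 cases and lower in 1. The 14 included the pathway inhibitors Bambi, Smad6, Smad7 and Ski, whereas the receptor gene Tgfbr1 and the transducers Smad2, Smad3 and Smad4 were not called. All 3 ligand genes rose: Tgfb1 1.42-fold (adjusted p = 0.00143), Tgfb2 2.50-fold (adjusted p = 4.54e-04) and Tgfb3 2.58-fold (adjusted p = 2.65e-04). Of the 4 tested genes of the latent TGF-beta binding proteins, which hold the ligand in the matrix, 3 rose and the other was not called. Ltbp2 stood at 2.15, 2.03 and 2.98 CPM in sham and at 108, 92.7, 48.6, 55.9 and 67.3 CPM with FG-3149, a 31.4-fold rise with no overlap (adjusted p = 1.47e-04). Ltbp4 rose 1.88-fold (382 ± 35.2 to 716 ± 49.8 CPM, adjusted p = 5.38e-06) and Ltbp3 rose 1.84-fold (adjusted p = 1.95e-04). The type II receptor gene Tgfbr2 rose 1.41-fold (adjusted p = 7.88e-05), but the transcript taken from the RPKM table had a log2 fold change of -0.33 ± 0.16 there (adjusted p = 0.154).

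WNT and BMP signals were higher in 13 of 24 cases and lower in 1, at a median of 0.55. Sfrp2, a secreted WNT antagonist, stood at 3.02, 1.56 and 2.57 CPM in sham and at 73.2, 72.8, 26.3, 23.2 and 38.5 CPM with FG-3149 (log2 4.32 ± 0.78, adjusted p = 0.00239). Dkk3, of the Dickkopf family, rose 18.6-fold (1.25 ± 0.231 to 23.2 ± 8.23 CPM, adjusted p = 1.91e-04), and Frzb, another WNT antagonist, rose 4.05-fold (adjusted p = 2.19e-04). Fzd2, a WNT receptor, rose 2.92-fold (adjusted p = 2.31e-05), and Bmp4 rose 2.17-fold (adjusted p = 0.00493). Wnt5a, the ligand called lower, had a log2 fold change of -0.43 ± 0.13 (adjusted p = 0.0151), but 0.23 ± 0.13 on the log2(RPKM + 1) scale (adjusted p = 0.235).

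Matrix proteases and their inhibitors were higher in 7 of 25 cases, 28.0% against 15.6% of all genes, and 5 of the 7 encode inhibitors. Timp1, an inhibitor of matrix metalloproteinases, stood at 0.556, 0.542 and 0.829 CPM in sham and at 10.5, 13.0, 12.8, 7.26 and 13.3 CPM with FG-3149. The groups were far apart, and the rise was 17.7-fold (log2 4.15 ± 0.35, adjusted p = 3.31e-06). Timp2, another inhibitor of the same family, rose 1.79-fold (adjusted p = 2.45e-04). Among the proteases, Mmp2 rose 1.78-fold (adjusted p = 7.04e-05) and Mmp23 rose 3.29-fold (adjusted p = 8.67e-06). Adamts9 was the 1 member called lower (log2 fold change -0.58 ± 0.19, adjusted p = 0.0350), a call that was lost in 10 alternative settings.

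**Figure D3:**
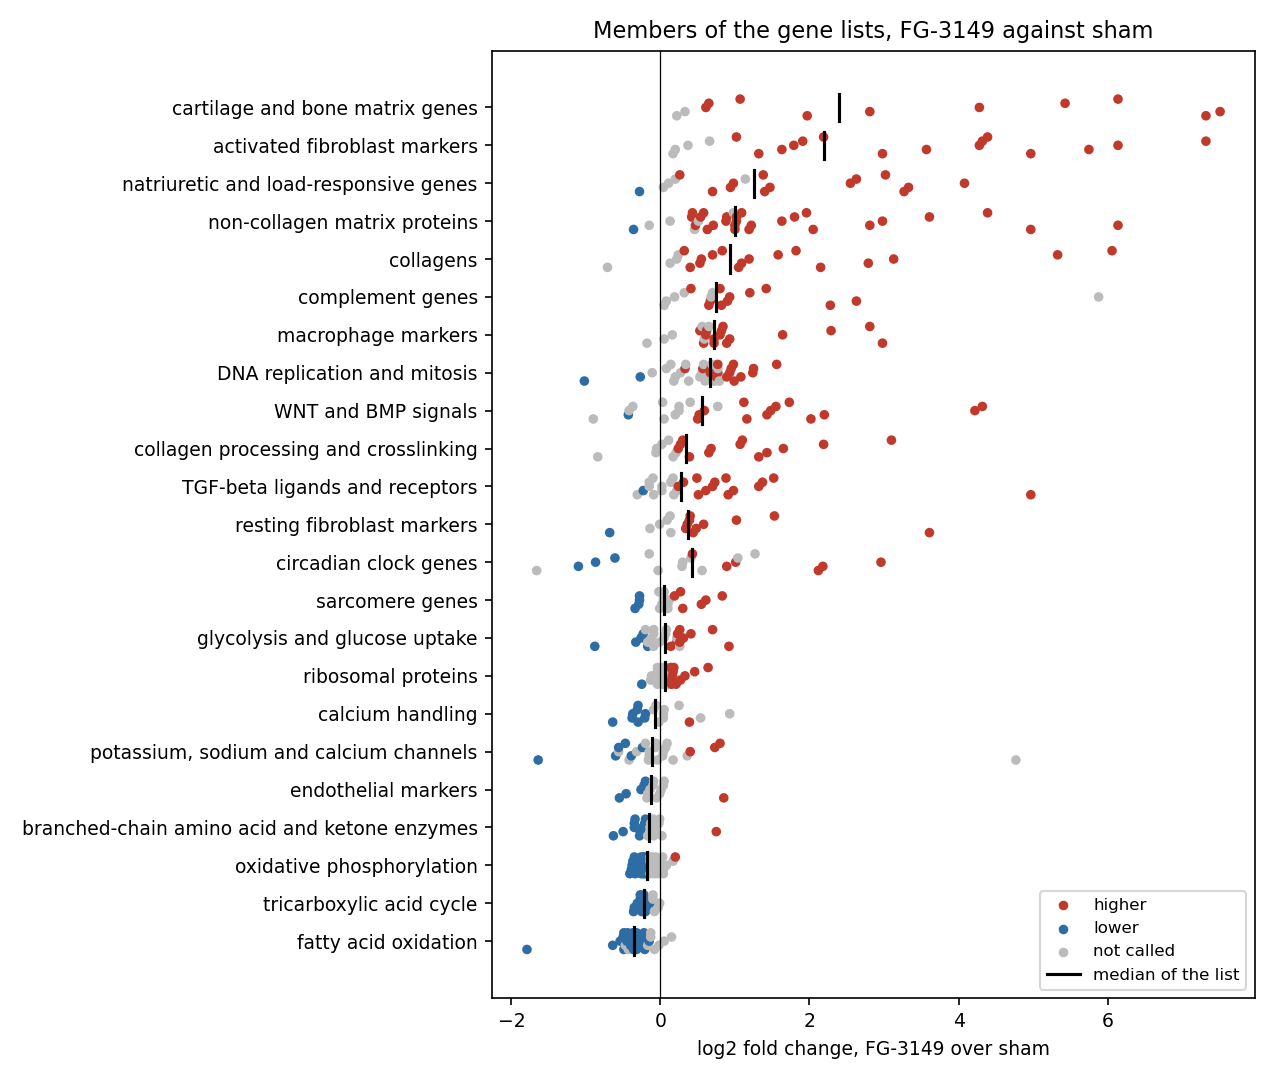
Log2 fold change of FG-3149 over sham (horizontal axis) for every tested member of 23 gene lists (rows), coloured by its call, with the median of each list as a black bar. The medians of the fibroblast, cartilage, load and matrix lists lie to the right of 0, and those of fatty acid oxidation (-0.35), the tricarboxylic acid cycle (-0.22) and oxidative phosphorylation (-0.18) lie to the left.

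Genes that heart muscle expresses under load were higher in 13 of 18 cases, at a median of 1.26. Nppa, which encodes atrial natriuretic peptide and is read at low levels in healthy adult ventricle, stood at 122, 112 and 98.6 CPM in sham and at 2618, 2762, 1136, 1479 and 1388 CPM with FG-3149. Every FG-3149 library was far above every sham library, and replicates 1 and 2 were higher than the other 3. The rise was 16.9-fold (log2 4.08 ± 0.41, adjusted p = 7.55e-05). Nppb, the gene of B-type natriuretic peptide, rose 2.77-fold, from 139.6, 255 and 166 CPM to 575, 779.5, 380.0, 479.9 and 375 CPM (adjusted p = 0.00659). Ankrd1, a stretch-responsive titin-associated protein, rose 6.18-fold (546 ± 56.7 to 3374 ± 605 CPM, adjusted p = 5.94e-06). Acta1, the skeletal actin of the fetal heart, rose 10.0-fold (134 ± 48.4 to 1344 ± 448 CPM, adjusted p = 1.23e-04).

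The genes of the fetal and adult cardiac myosin heavy chains moved in opposite directions. Myh7, the slow myosin heavy chain, stood at 292, 238 and 244 CPM in sham and at 2125, 3587, 1807, 2249 and 2687 CPM with FG-3149, a 9.66-fold rise (log2 3.27 ± 0.27, adjusted p = 2.23e-05). Myh6, the fast adult form, stood at 27653, 32535 and 30611 CPM in sham and at 23371, 23367, 25382, 24847 and 27291 CPM with FG-3149. The groups did not overlap, and the log2 fold change was -0.28 ± 0.07 (adjusted p = 0.00545), a call that was lost without sham replicate 2 (adjusted p = 0.0505). How the authors' counting split reads between these near-identical genes was not given in the sources used here. Of the 19 tested sarcomere genes, 6 were higher and 4, Myh6 among them, lower. Mybpc3, the myosin-binding protein C of the thick filament, rose 1.46-fold (adjusted p = 2.47e-05), and Myl2 and Tnni3, the ventricular light chain and the cardiac troponin I, fell to 0.788 and 0.825 of sham (adjusted p = 3.33e-04 and 0.00208).

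Promoter sequence is shown for 4 of the 6 load genes that held a shared short element, and for Thbs4, which is not on the load list but is among the 15 highest folds. The MCAT element, which TEAD factors bind, was searched as CATTCC on either strand (read as GGAATG on the other) in the 250 bases before the start of each gene, with sequences from RefSeq (GRCm38.p6). It was present in 13.2% of 10647 tested genes with a promoter entry and in 6 of 17 tested load genes (35.3%). A match describes letters in this window and no binding. In the stretches below, given 5′ to 3′ on the strand of the gene with 20 bases on either side, capitals mark the element.
Nppb, chr4:147985775-147985820: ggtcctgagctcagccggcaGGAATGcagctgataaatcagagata
Ankrd1, chr19:36119942-36120074, reverse strand: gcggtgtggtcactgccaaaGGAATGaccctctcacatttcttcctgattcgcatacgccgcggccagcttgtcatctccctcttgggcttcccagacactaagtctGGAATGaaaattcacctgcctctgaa
Acta1, chr8:123894796-123894841, reverse strand: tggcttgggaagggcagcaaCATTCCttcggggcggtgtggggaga
Myh7, chr14:54994802-54994847, reverse strand: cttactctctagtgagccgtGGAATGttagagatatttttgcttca
Thbs4, chr13:92794985-92795035, reverse strand: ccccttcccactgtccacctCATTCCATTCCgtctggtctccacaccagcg

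Ankrd1 held 2 matches at a distance, and in Thbs4 2 overlapping matches formed a run. Among the 15 genes with the highest fold changes, 11 had a promoter entry and 3 of these held the element (27.3%). The AP-1 site TGACTCA, searched together with its reverse complement TGAGTCA, was present in 4.1% of the tested genes with an entry and in 1 of those 11, Sprr1a. Among the 17 load genes with an entry, 3 held the AP-1 site (17.6%). The E-box CACGTG, the other motif searched, was present in 9.7% of the tested genes with an entry, in 2 of the 17 load genes (11.8%), in 0 of those 11 and in 3 of 14 clock genes (21.4%). Sprr1a, a small proline-rich protein that is induced in stressed muscle cells, had 2 counts in sham and 389 with FG-3149 (ratio 130.3, interval 35.8 to 1079.8, adjusted p = 0.00175), and its window held 2 such sites.
Sprr1a, chr3:92485971-92486047, reverse strand: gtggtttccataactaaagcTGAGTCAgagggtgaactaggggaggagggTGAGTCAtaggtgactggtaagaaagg

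Calcium handling was lower in 8 of 18 genes and higher in 1, which stands against 13.9% lower and 15.6% higher among all genes. Pln, which encodes the calcium pump regulator phospholamban, stood at 9799, 8667 and 7903 CPM in sham and at 5812, 5617, 5979, 5160.4 and 5568 CPM with FG-3149. All FG-3149 libraries were below all sham libraries, and the level fell to 0.640 of sham (log2 -0.64 ± 0.08, adjusted p = 2.07e-05). Atp2a2, the calcium pump itself, fell to 0.773 of sham (19724 ± 973 to 15246 ± 827 CPM, adjusted p = 1.54e-04). Ryr2, the release channel, fell to 0.805 of sham (adjusted p = 0.00234), and Hrc, a calcium-binding protein of the same store, fell to 0.769 (adjusted p = 5.27e-04). Jph2, which ties the store to the surface membrane, rose and is described below.

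Among 26 channel genes, 6 were lower (23.1% against 13.9% of all genes) and 3 higher (11.5% against 15.6%). Abcc9, the regulatory subunit of the ATP-sensitive potassium channel, stood at 704, 688 and 677 CPM in sham and at 454, 454, 443, 465 and 516 CPM with FG-3149, with no overlap (log2 -0.56 ± 0.06, adjusted p = 3.31e-06). Kcnv2, a modifier subunit of potassium channels, fell to 0.321 of sham (22.7 ± 3.10 to 7.31 ± 1.96 CPM, adjusted p = 6.04e-04). Kcnd3, a channel of the transient outward current, fell to 0.661 (adjusted p = 0.00189) and Kcnj5 to 0.722 (adjusted p = 0.00279).

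Fatty acid oxidation moved in 1 direction, with 25 of 34 tested genes lower and none higher, and a median log2 fold change of -0.35. Hadhb, a subunit of the mitochondrial trifunctional protein that carries out the last steps of each oxidation cycle, stood at 3520.1, 3435 and 3359 CPM in sham and at 2546, 2356, 2386, 2439 and 2533 CPM with FG-3149. The spread within each group was small against the gap, and the level fell to 0.713 of sham (log2 -0.49 ± 0.06, adjusted p = 2.68e-05). Its partner Hadha fell to 0.730 (adjusted p = 3.23e-05). Cd36, the fatty acid transporter, fell to 0.711 (2686 ± 95.8 to 1909.5 ± 29.3 CPM, adjusted p = 1.14e-04). Acot1, a cytosolic thioesterase with the near-identical relative Acot2, fell further, to 0.288 of sham (15.1 ± 1.17 to 4.33 ± 0.737 CPM, adjusted p = 3.37e-04). Ppargc1a, which encodes the coactivator PGC-1 alpha, fell to 0.786 of sham (adjusted p = 0.00471).

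The tricarboxylic acid cycle was lower in 13 of 18 genes (median -0.22) and oxidative phosphorylation in 28 of 50 (median -0.18), with 0 and 1 genes higher. Sdha, the flavoprotein of complex II that also acts in the cycle, stood at 2348, 2379 and 2262 CPM in sham and at 1844, 1752, 1774, 1767 and 1773 CPM with FG-3149 (log2 -0.39 ± 0.06, adjusted p = 8.72e-05). Idh3a, a subunit of isocitrate dehydrogenase, fell to 0.787 of sham (adjusted p = 5.22e-04), and Cs, the citrate synthase gene, fell to 0.832 (adjusted p = 0.00130). Atp5o, a subunit of the ATP synthase, fell to 0.767 (adjusted p = 6.07e-04). Without FG-3149 replicates 1 and 2, 17 of the 50 oxidative phosphorylation genes were lower. The summed level of cardiac muscle markers moved in the same direction, as given above, but the median log2 fold change of the 15 markers was 0.05. Of these, 6 were lower (40.0% against 13.9% of all genes), 2 higher (13.3% against 15.6%) and 7 not called. The part of muscle cell content in the metabolic results was not tested.

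Glycolysis and glucose uptake had 9 of 26 genes higher (34.6%) and 5 lower (19.2%), a balance that turned with the setting. Pfkp, the platelet form of phosphofructokinase, rose 1.62-fold (62.0 ± 0.496 to 100.4 ± 10.8 CPM, adjusted p = 2.70e-05) and Gapdh rose 1.24-fold (adjusted p = 0.00198). The insulin-responsive transporter gene Slc2a4 fell to 0.834 of sham (adjusted p = 0.00417) and Ldhb to 0.793 (adjusted p = 2.87e-04). With the GC trend removed, 4 of the glycolysis genes were higher and 6 lower. The counts were 4 and 5 without FG-3149 replicates 4 and 5, 5 and 5 without FG-3149 replicate 5, and 4 to 5 higher and 3 lower without any 1 sham library. The lower count was 3 without FG-3149 replicate 1 or 2. Of the 22 enzymes of branched-chain amino acid and ketone use, 10 were lower and 1 higher. Bdh1, which interconverts ketone bodies in mitochondria, was the 1 higher gene, at 178, 211 and 194 CPM in sham and 322, 286, 327, 350.2 and 349 CPM with FG-3149 (log2 0.75 ± 0.08, adjusted p = 3.31e-06). Ppm1k, the phosphatase that activates branched-chain amino acid breakdown, fell to 0.647 of sham (adjusted p = 1.55e-04).

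Of 23 antioxidant and oxidase genes, 11 were higher and 3 lower. Nox4, an NADPH oxidase of fibroblasts and muscle cells, stood at 0.795, 1.15 and 0.994 CPM in sham and at 11.9, 8.78, 5.46, 6.88 and 9.35 CPM with FG-3149, an 8.54-fold rise (adjusted p = 4.79e-05). Hmox1, the stress-induced haem oxygenase, rose 1.90-fold (adjusted p = 2.52e-04), while the mitochondrial peroxiredoxin Prdx3 fell to 0.773 of sham (adjusted p = 7.22e-05). Genes of the integrated stress response and one-carbon metabolism were higher in 5 of 20 cases (25% against 15.6% of all genes), and in 3 without sham replicate 1 and in 3 without FG-3149 replicates 4 and 5. Gdf15, a stress cytokine, rose 8.14-fold from 0.960 ± 0.393 to 7.68 ± 3.75 CPM (adjusted p = 0.00359), with replicate 3 of FG-3149 lowest at 2.37 CPM. Aldh1l2, the mitochondrial enzyme of folate metabolism, fell to 0.349 of sham (24.0 ± 1.93 to 8.36 ± 2.51 CPM, adjusted p = 0.00172).

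Macrophage markers were higher in 15 of 21 cases and lower in none, at a median of 0.72. Gpnmb, a marker of lipid-laden macrophages, stood at 0.397, 0.474 and 0.663 CPM in sham and at 3.76, 7.10, 2.27, 3.63 and 3.33 CPM with FG-3149 (7.87-fold, adjusted p = 6.35e-04). The groups did not overlap, and replicate 2 of FG-3149 was the highest. Trem2, a lipid receptor of the same cells, rose 3.11-fold (adjusted p = 0.00245), and C1qb, a complement subunit made by macrophages, rose 1.90-fold (36.8 ± 1.21 to 70.2 ± 12.7 CPM, adjusted p = 0.00172). The summed level over the list was 417 to 427 CPM in sham and 604 to 942 CPM with FG-3149, with no marker at 0 in all libraries. The count dropped to 9 and 8 genes without sham replicate 1 and sham replicate 2.

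Complement genes were higher in 11 of 18 cases, at a median of 0.75, and C1qa, C1qb and C1qc among them are also on the macrophage list. C4b rose 4.87-fold (9.54 ± 2.57 to 46.0 ± 16.0 CPM, adjusted p = 0.00368). Interferon response genes were higher in 8 of 32 cases (25% against 15.6% of all genes), and in 5 without sham replicate 2 and in 5 without FG-3149 replicates 1 and 2. Among the 8 was Irf7, the master regulator of that response, which rose 1.53-fold (adjusted p = 2.07e-04, and up to 0.0534 over the alternative settings). Of 28 cytokine and chemokine genes, 4 were higher (14.3%) and 3 lower (10.7%), shares no larger than the 15.6% and 13.9% of all genes, and 2 were higher without sham replicate 1. The eosinophil attractant Ccl11 fell to 0.331 of sham (2.51 ± 0.699 to 0.832 ± 0.262 CPM, adjusted p = 0.00215), and the stromal chemokine Cxcl12 fell to 0.720 (adjusted p = 9.87e-04). None of the 9 tested lymphocyte markers was called in either direction. Their median was -0.32, and their summed levels are given above.

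Genes of DNA replication and mitosis were higher in 16 of 35 cases and lower in 2, at a median of 0.67. Mcm6, a subunit of the replicative helicase, stood at 11.8, 10.5 and 12.5 CPM in sham and at 17.4, 15.4, 22.3, 18 and 18.9 CPM with FG-3149, 1.59-fold higher with no overlap (adjusted p = 9.85e-04). Cdk1, the mitotic kinase, rose 2.36-fold (1.82 ± 0.154 to 4.32 ± 0.764 CPM, adjusted p = 0.00518), and Top2a rose 1.85-fold (adjusted p = 0.00163). Without sham replicate 1 or 2, 9 of these genes were higher. Ccnd2, a G1 cyclin, rose 1.68-fold (adjusted p = 5.54e-05).

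Endothelial markers had 5 of 16 genes lower and 1 higher. Kdr, the main VEGF receptor, stood at 363, 404 and 424 CPM in sham and at 254, 276, 272, 284 and 272 CPM with FG-3149, and fell to 0.685 of sham with no overlap (adjusted p = 0.00106). Emcn, a marker of capillaries and veins, fell to 0.729 (adjusted p = 7.10e-04), whereas Vwf rose 1.80-fold (38.0 ± 3.12 to 68.2 ± 19.0 CPM, adjusted p = 0.00702). The number of lower markers was 2 without sham replicate 3 and 2 without FG-3149 replicates 1 and 2, and it was 3 without sham replicate 2 or without either of those FG-3149 libraries alone. The summed level was 2808 to 3089 CPM in sham and 2604 to 2965 CPM with FG-3149, which overlap. Of 30 growth factor and angiogenesis genes, 11 were higher and 3 lower (5 lower with the GC trend removed). Igfbp6, a binding protein of insulin-like growth factor II, stood at 7.79, 7.59 and 8.12 CPM in sham and at 28.0, 31.9, 35.3, 27.9 and 26.1 CPM with FG-3149, 3.81-fold higher (adjusted p = 8.51e-09). Angptl7, a secreted angiopoietin-like protein, rose 26.0-fold (adjusted p = 0.00109). Ereg, an EGF receptor ligand, had no count in sham and 41 with FG-3149. The exact counting interval of its ratio began at 7.12, and the ratio was 9.16 against a floor of 3 counts over the sham group.

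Of 21 adrenergic, renin-angiotensin and endothelin genes, 4 were higher (19.0%, near the 15.6% of all genes) and 6 lower (28.6%). The lower count was 3 without sham replicate 1, 2 without sham replicate 2 and 1 without FG-3149 replicates 4 and 5. Ace, the angiotensin-converting enzyme gene, stood at 61.2, 63.1 and 64.5 CPM in sham and at 145, 143, 141, 155 and 159 CPM with FG-3149, 2.36-fold higher (adjusted p = 5.88e-05). Edn3, which encodes endothelin 3, rose 4.20-fold (2.40 ± 0.518 to 10.2 ± 3.13 CPM, adjusted p = 4.19e-05). Of 6 tested Schwann and neuronal markers, 3 were lower and none higher, and 1 was lower without FG-3149 replicates 4 and 5.

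The lowest folds belonged to a mixed group. Esr1, which encodes oestrogen receptor alpha, stood at 3.66, 12.5 and 8.78 CPM in sham and at 0.427, 0.840, 0.455, 0.465 and 0.488 CPM with FG-3149. Sham varied widely within itself, yet its lowest library was above the highest FG-3149 library (log2 -3.93 ± 0.35, adjusted p = 1.37e-06). With IgG the mean of Esr1 was 0.692 CPM. Gm10635, a predicted gene, stood at 14.1, 11.6 and 13.2 CPM and at 2.39, 3.28, 2.91, 2.70 and 2.60 CPM (log2 -2.21 ± 0.16, adjusted p = 2.07e-07). Ano10, an anoctamin, fell to 0.284 of sham by the gene counts (113 ± 11.4 to 32.3 ± 1.69 CPM, adjusted p = 8.17e-07), but the transcript taken from the RPKM table gave an adjusted p of up to 0.504. Ces1d, a carboxylesterase of lipid metabolism, fell to 0.339 of sham (257 ± 21.5 to 87.3 ± 13.2 CPM, adjusted p = 9.50e-04). Lgals4, a galectin best known from the gut, fell to 0.329 (109 ± 3.72 to 35.7 ± 5.53 CPM, adjusted p = 3.61e-05). Scn10a, a sodium channel of sensory neurons that also occurs in heart, fell to 0.333 (4.92 ± 0.793 to 1.63 ± 0.618 CPM, adjusted p = 1.93e-04).

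Both infarcted groups were set against the same 3 sham libraries, so their lists of genes are not compared, and the 2 antibodies were tested against each other directly. FG-3149 differed from IgG in 144 of 13434 genes (1.07%), 123 higher (0.916%) and 21 lower (0.156%). The count ranged from 68 to 271 when 1 library was left out, with the lowest without IgG replicate 2 and the highest without IgG replicate 1, and it was 108 after removal of the GC trend. It was 94 without sham replicate 1, 90 without IgG replicate 5, and 76, 74 and 84 without FG-3149 replicates 3, 4 and 5. The genes higher with FG-3149 had a median GC content of 57.1% against 50.5% for all genes tested, and the lower ones had 48.7%. In IgG libraries the GC lean defined above was -0.11 to 0.09, against 0.08 to 0.17 with FG-3149.

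Several genes with low p-values in this test stood above both other groups. Jund, an AP-1 subunit, stood at 32.9, 34.5 and 38.5 CPM in sham and at 82.8, 108, 103, 91.0 and 88.9 CPM with FG-3149 (2.68-fold, adjusted p = 2.53e-07). With IgG its mean was 53.2 ± 5.95 CPM, and the log2 difference of FG-3149 from IgG was 0.83 ± 0.08 (adjusted p = 1.73e-04). After removal of the GC trend the difference from IgG was 0.65 (adjusted p = 2.12e-04). Nkx2-5, the cardiac homeobox factor, stood at 34.8, 36.7 and 37.9 CPM in sham, at 53.2, 61.2, 68.6, 57.3 and 64.7 CPM with FG-3149 and at a mean of 37.3 CPM with IgG. FG-3149 did not overlap sham, and the log2 differences were 0.74 ± 0.11 from sham (adjusted p = 1.17e-04) and 0.71 ± 0.09 from IgG (adjusted p = 0.00166). Nr2f6, an orphan nuclear receptor, had a mean of 24.6 CPM in sham, 46.4 CPM with FG-3149 and 26.5 CPM with IgG (log2 difference from IgG 0.81 ± 0.10, adjusted p = 0.00106). With the GC trend removed, the differences from IgG were 0.53 for Nkx2-5 (adjusted p = 0.00229) and 0.62 for Nr2f6 (adjusted p = 0.00174).

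Genes active in muscle cells were among the 123. Jph2 stood at 529, 505 and 518 CPM in sham, at 653, 656, 693, 680.2 and 717 CPM with FG-3149 and at a mean of 555 CPM with IgG, and differed from IgG by 0.29 ± 0.04 (adjusted p = 0.00252). Hcn2, a pacemaker channel, rose 1.66-fold over sham (16.2 ± 1.11 to 26.9 ± 4.42 CPM, adjusted p = 2.05e-04), and its IgG mean was 17.2 CPM (difference 0.64 ± 0.10, adjusted p = 0.00289). Hspb1, a small heat shock protein, had means of 143 CPM in sham, 193 CPM with IgG and 247 CPM with FG-3149 (difference from IgG 0.36 ± 0.06, adjusted p = 0.00393). With the GC trend removed, the differences from IgG for Jph2, Hcn2 and Hspb1 were 0.20, 0.49 and 0.28 (adjusted p = 0.0420, 0.0199 and 0.0235). Of the 20 immediate early genes, the group to which Jund belongs, 7 were higher than sham, a count that was 4 without sham replicate 1, and without FG-3149 replicates 1 and 2 it was 4, with 5 lower. Junb, another AP-1 subunit, rose 2.20-fold over sham (9.0 ± 0.768 to 19.8 ± 3.33 CPM, adjusted p = 8.91e-05). Of the 50 oxidative phosphorylation genes, 5 were higher with FG-3149 than with IgG. Cox5a, a subunit of cytochrome c oxidase, stood at 802 ± 25.5 CPM in sham, 848 ± 77.7 CPM with FG-3149 (adjusted p = 0.409) and a mean of 658 CPM with IgG (difference 0.37 ± 0.06, adjusted p = 0.00417). Ndufab1, the mitochondrial acyl carrier protein, is not on that list. It had means of 273, 370.2 and 237 CPM in the same order and was higher with FG-3149 than in sham (adjusted p = 0.0106) and than with IgG (adjusted p = 0.00534). With the GC trend removed, Cox5a and Ndufab1 differed from IgG by 0.38 and 0.67 (adjusted p = 0.00454 and 0.00677).

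Some genes of the matrix lay between sham and IgG. Lum, which encodes the collagen-binding proteoglycan lumican, stood at 65.3, 54.5 and 65.7 CPM in sham, at 92.6, 98.1, 98.4, 97.7 and 92.8 CPM with FG-3149 and at a mean of 127 CPM with IgG. FG-3149 was above every sham library, and it differed from IgG by -0.41 ± 0.07 (adjusted p = 0.00393). Aspn, its relative asporin, had means of 27.6, 58.6 and 81.3 CPM in the same order, a log2 difference of 1.09 ± 0.10 from sham (adjusted p = 3.31e-06) and -0.47 ± 0.08 from IgG (adjusted p = 0.00767). Mfap5, a microfibril protein, had means of 15.7, 60.6 and 93.8 CPM and differed from IgG by -0.63 ± 0.13 (adjusted p = 0.0349). Cthrc1, a secreted protein of activated fibroblasts, had 1 count in sham and 109 with FG-3149 (ratio 73.0, interval 12.8 to 2911), and differed from IgG by -1.17 ± 0.28 (adjusted p = 0.0491). The calls for Mfap5 and Cthrc1 were each lost in 15 of 24 alternative settings, with adjusted p up to 0.174 and 0.216, whereas that for Lum was lost in none and that for Aspn only without FG-3149 replicates 4 and 5. Postn had a mean of 544 CPM with IgG, and its difference of -0.90 was not called (adjusted p = 0.0688). Over the 20 collagen genes tested, the median log2 difference between FG-3149 and IgG was -0.19, and none was called in either direction. Of the 32 other matrix genes, 3 were called lower and none higher, against 0.156% and 0.916% of all genes.

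**Figure D4:**
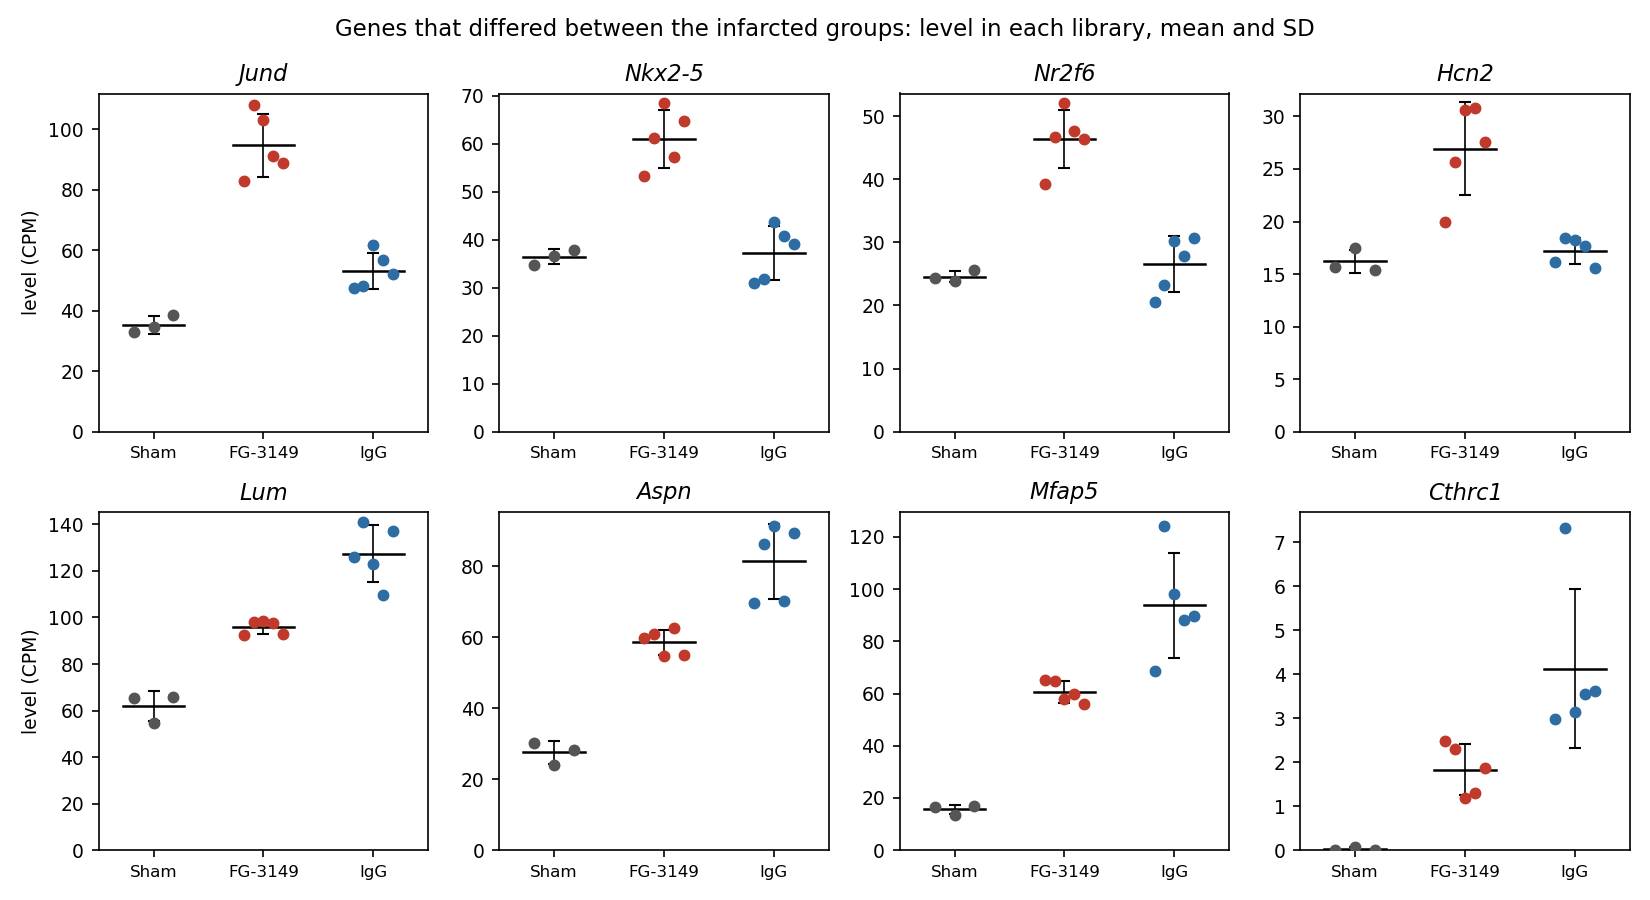
Level in CPM of 8 genes that differed between FG-3149 and IgG, in each library (points) with the mean and SD of each group (bars). In the upper row FG-3149 lies above both other groups, and in the lower row it lies between sham and IgG.

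The 5 FG-3149 libraries were not alike in every gene group. Replicates 4 and 5 stood apart in circadian clock genes, of which 6 of 18 were called higher and 3 lower. Dbp, a clock output gene, stood at 11.7, 15.4 and 17.1 CPM in sham and at 79.2, 85.2, 71.8, 173 and 165 CPM with FG-3149, so that replicates 4 and 5 were well above the other 3 (7.80-fold over sham, adjusted p = 0.00187). Per2, a repressor of the clock, stood at 4.93, 6.71 and 5.14 CPM and at 17.2, 19.7, 9.83, 37.2 and 44.2 CPM (adjusted p = 0.0208), a call that was lost in 5 of 24 alternative settings. Arntl, the activator, ran the other way, at 37.4, 31.9 and 31.7 CPM in sham and 13.8, 15, 18.5, 2.98 and 2.76 CPM with FG-3149, and was not called (adjusted p = 0.0827). Without replicates 4 and 5, 2 clock genes were higher and 1 lower. The counts moved as much with sham, to 3, 3 and 2 higher and 1 lower without sham replicates 1, 2 and 3, and the lower count was 1 without FG-3149 replicate 4 or 5. The IgG group split too: the median log2 difference from the sham mean over the clock list was 0.25 and 0.32 in IgG replicates 1 and 2. It was 0.54 to 0.59 in IgG replicates 3 to 5, and 0.22, 0.31, 0.06, 0.59 and 0.66 in FG-3149 replicates 1 to 5. No time of day is given in the sources used here, and its part in these results was not tested.

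Haemoglobin mRNA, which comes from blood in the tissue, split the same libraries: Hba-a1 stood at 367, 492, 474, 165 and 188 CPM with FG-3149 and at 281, 191 and 192 CPM in sham (adjusted p = 0.483). Over the 4 tested erythroid markers, the median log2 difference from the sham mean also split the IgG group. It was 0.62 and 1.26 in IgG replicates 1 and 2 and -0.93 to -0.68 in IgG replicates 3 to 5. In FG-3149 it was 0.72 to 1.03 in replicates 1 to 3 and -0.55 and -0.41 in replicates 4 and 5. FG-3149 replicate 3 stood apart in some genes of the epicardial surface and in the fat gene Cfd. Upk3b, a marker of mesothelium, stood at 0.427, 3.97, 21.9, 0.186 and 0.813 CPM with FG-3149 and at most 0.166 CPM in sham (adjusted p = 0.0930). Cfd, the adipocyte protein adipsin, stood at 29.8 CPM in replicate 3 and at 0 to 2.90 CPM in the other 4 (adjusted p = 0.249). Cidec, another adipocyte marker, had 2 counts in sham and 47 with FG-3149 and was not called. Over the 5 tested of 10 adipocyte markers, the median log2 difference from the sham mean was -0.07 in replicate 3 and -0.25 to -0.05 in the other 4. A median over so few genes cannot show a rise in 1 or 2 of them. Over the list of 10 epicardial and mesothelial markers, of which 7 were tested, 1 was higher and 1 lower, and the summed level was 14.4 to 17.0 CPM in sham and 12.6 to 59.4 CPM with FG-3149. Without replicates 1 and 2, the highest libraries in most of the genes with the highest folds, 1883 genes were higher and 1525 lower than in sham.

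**Figure D5:**
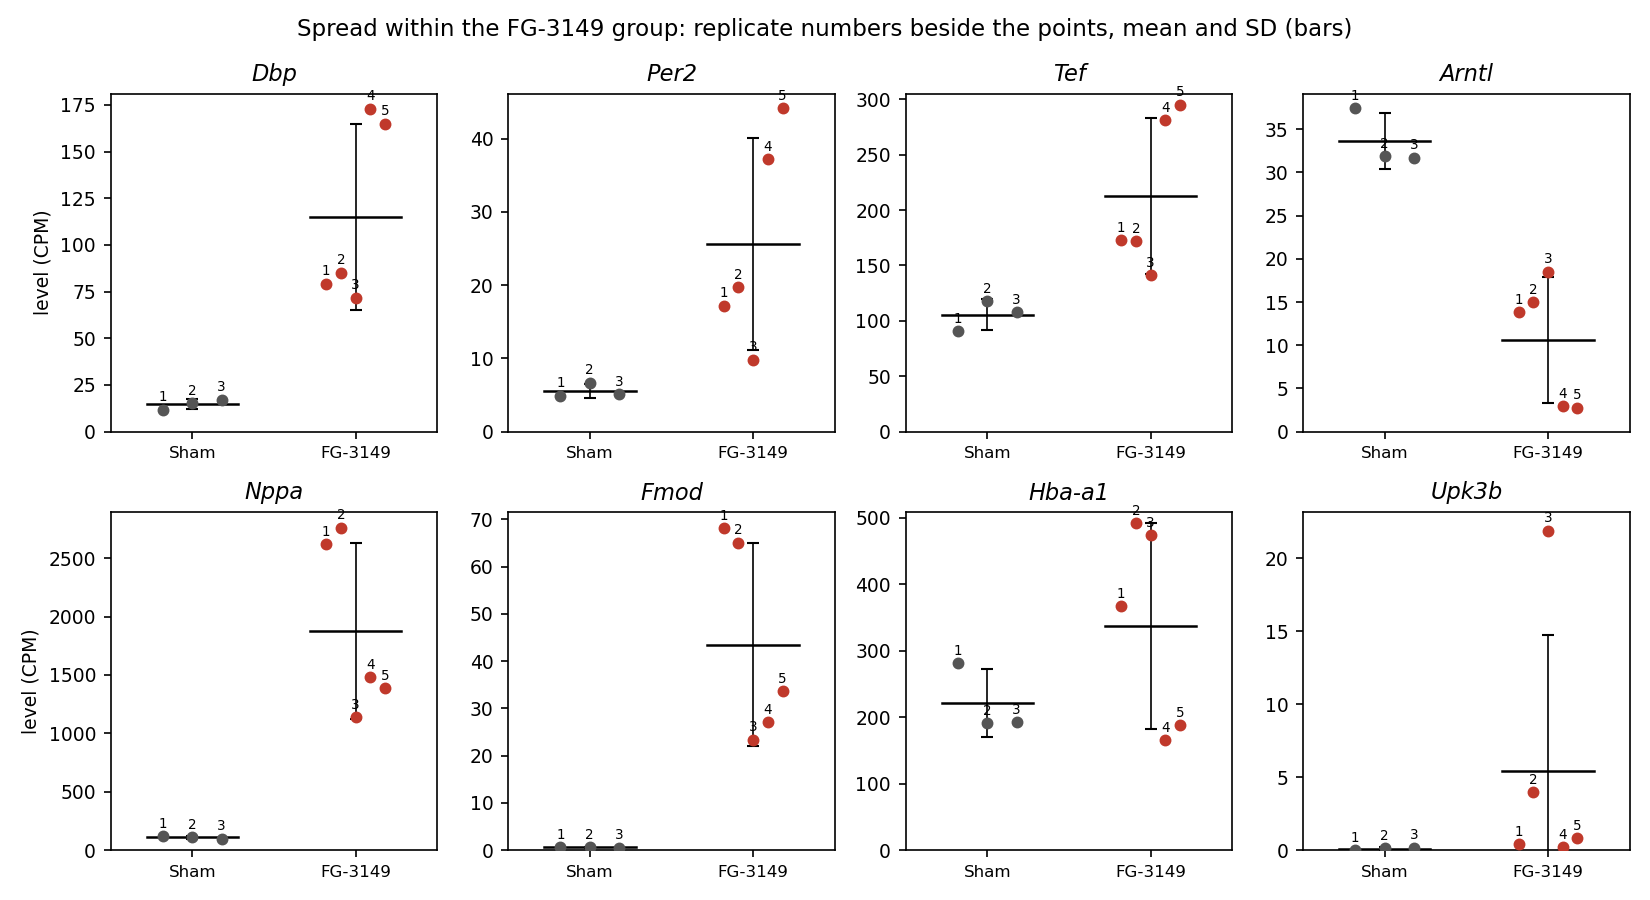
Level in CPM of 8 genes in the sham and FG-3149 libraries, with replicate numbers beside the points and the mean and SD as bars (cut at 0). Replicates 4 and 5 differ from the others in Dbp, Per2, Tef, Arntl and Hba-a1, replicates 1 and 2 are highest in Nppa and Fmod, and replicate 3 is highest in Upk3b.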

How the data were processed

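RNA from left ventricle outside the ischaemic zone of 13 mice was sequenced as stranded mRNA libraries with 75-base single reads. Deposited by the authors were RPKM per transcript and, per gene, estimated counts, on mm10, per the labels and the file headers. The sources used here name no aligner, counter or strand setting. Of 36172 gene rows, 379 with repeated symbols were left out (0.0% of reads), and 79.4% of values above 0 were within 0.01 of a whole number. Counts were rounded, filtered with filterByExpr, scaled by TMM and fitted for all 13 libraries without covariates with edgeR 4.0.16 (robust quasi-likelihood test, Benjamini-Hochberg adjustment over 13434 genes, R 4.3.3). Standard errors were derived from each gene's log2 fold change and its F statistic, and intervals are 1.96 of these. CPM uses TMM-scaled totals. Fold changes come from the fit. The p-values measure only the spread between these samples. Counting intervals are exact at 95%.

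Alternatives comprised DESeq2 1.42.0, limma 3.58.1 (voom, and log2 of the authors' RPKM plus 1 or 0.1), DESeq2's size factors, no filter, the replicate number as a block, only the groups compared and each library left out. A refit without FG-3149 replicates 1 and 2 and a refit with the GC trend removed were chosen after seeing the data. Lists are described by counts and medians without a test. Some genes, such as Spp1, Ltbp2, Mfap4 and C1qb, are shared between lists, so the counts of different lists are not independent. The code was tested on simulated data.

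The comparison, the 46 gene lists and the tests were chosen with earlier results of these data known. Genes were named if they were among the 15 highest or lowest folds (called, mean log2 CPM of at least 1, groups not overlapping), among the 6 members of a list with the smallest p, among fixed genes of fibrosis, load and clock, or among 10 genes with the smallest p against IgG, overall and on the far side of it. Others were chosen after their values were seen, namely Acot2, Adamts9, Bmp4, Cd36, Col4a1, Col4a2, Cox5a, Cox5b, Ereg, Ogn, Ppargc1a, Sox9, Tgfb1, Tgfb2 and Wnt5a.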

Additional observations from a re-analysis of the deposited data

Results flagged for a closer look

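Among the 5 FG-3149 libraries, 1 library lay far from the other 4 in 11 of the 152 genes examined in this way, where chance alone marks about 1 in 20. Replicate 3 was high for the surface and fat markers Upk3b (21.9 CPM against 0.186 to 3.97 in the others), Lrrn4 (6.91 against 0 to 1.6) and Cfd (29.8 against 0 to 2.90). It was also high for the basement membrane chain Col4a2 (669.5 against 587 to 609), and low for the calcium release channel gene Ryr2 (1863 against 2196 to 2276) and for Atp6v0a4 (1.82 against 3.25 to 3.54). Replicate 1 was low for Mybpc3 (5531 against 6466 to 6656) and high for Sdha (1844 against 1752 to 1774). Replicate 2 was high for Col18a1 (22.8 against 19.1 to 19.9) and for Esr1 (0.840 against 0.427 to 0.488). Replicate 4 was low for Col14a1 (35.7 against 46.3 to 50.2).

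For 25 of the genes examined, the level in ligated hearts differed between the 2 antibodies in the direct test (edgeR, all 13 libraries, log2 difference of FG-3149 from IgG ± SE). Transcription and signalling genes were higher with FG-3149: Jund by 0.83 ± 0.08 (adjusted p = 1.73e-04), Nr2f6 by 0.81 ± 0.10 (adjusted p = 0.00106), Nkx2-5 by 0.71 ± 0.09, Hnrnpa0 by 0.73 ± 0.10, Ccdc85c by 0.78 ± 0.11, Gpr27 by 1.36 ± 0.19 and 4930526I15Rik by 1.04 ± 0.14 (adjusted p = 0.00166 for each of the last 5). The muscle cell and channel genes were Jph2 at 0.29 ± 0.04 (adjusted p = 0.00252), Hcn2 at 0.64 ± 0.10 (adjusted p = 0.00289), Kcng2 at 0.53 ± 0.07 (adjusted p = 0.00106) and Hspb1 at 0.36 ± 0.06 (adjusted p = 0.00393). Genes of mitochondria and ribosomes were Cox5a at 0.37 ± 0.06 (adjusted p = 0.00417), Ndufab1 at 0.64 ± 0.10 (adjusted p = 0.00534), Chchd10 at 0.55 ± 0.08 (adjusted p = 0.00166), Chchd2 at 0.32 ± 0.06 (adjusted p = 0.00723), Mrps24 at 0.48 ± 0.07 (adjusted p = 0.00252), Rpl13 at 0.34 ± 0.05 (adjusted p = 0.00299), Cox5b at 0.27 ± 0.06 and Acot2 at 0.47 ± 0.10 (adjusted p = 0.0404 for both of the last). Lower with FG-3149 were Lum at -0.41 ± 0.07 (adjusted p = 0.00393), Aspn at -0.47 ± 0.08 (adjusted p = 0.00767), Cd34 at -0.30 ± 0.06 (adjusted p = 0.0178), Mfap5 at -0.63 ± 0.13 (adjusted p = 0.0349), Ifit2 at -0.28 ± 0.06 (adjusted p = 0.0443) and Cthrc1 at -1.17 ± 0.28 (adjusted p = 0.0491). Over 24 alternative settings the calls for Cd34, Cox5b, Ifit2 and Acot2 were lost in 7, 12, 15 and 17, and that for Ndufab1 in 1.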

How the results depend on the processing

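For FG-3149 against sham, 3576 genes were called with the replicate block, 2641 to 4088 with 1 library left out (higher 1456 to 2225, lower 1166 to 1896, the lowest without sham replicate 1), and 2977 without FG-3149 replicates 4 and 5. With the IgG libraries left out of the fit, 3862 genes were called. Same-numbered libraries of FG-3149 and sham correlated at -0.03 to 0.02, and those of FG-3149 and IgG at -0.02 to 0.18. The same-numbered IgG library was the best match for FG-3149 replicates 1 and 2 (0.18 and 0.13), but not for replicates 3 to 5. No same-numbered sham library was the best match of an FG-3149 library. Counts against IgG depended on the setting. Genes called were 83 with only the 2 groups compared, 68 to 271 with 1 library left out, 51 without FG-3149 replicates 4 and 5, 278 with DESeq2 and 232 with log2(RPKM + 1). Higher genes in the same order were 76, 62 to 175, 40 and, with DESeq2, 220. Lower genes were 7, 6 to 96, 11, 58 with DESeq2, 120 and 101 with log2(RPKM + 1) and log2(RPKM + 0.1), and 46 with the replicate block. IgG against sham gave 3329 to 4808 genes with 1 library left out.

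Across 152 named genes and all settings, 3566 of 3643 values kept their direction and call, 60 lost the call but kept the direction, 12 gained a call and 5 changed sign. The sign changed for Nov (-0.01 without FG-3149 replicate 1, in a range up to 0.24 with 1 library left out), Tgfbr2 (-0.33 and -0.37 with RPKM plus 1 and plus 0.1) and Wnt5a (0.23 and 0.37). The RPKM values are of transcripts, and the cause was not tested. Of 142 called genes, 15 lost their call with the direction kept in at least 1 setting. Where the sign changed, Tgfbr2 (adjusted p = 0.154 and 0.155) and Wnt5a (adjusted p = 0.235 and 0.260) were not called either. Low counts in sham limit the folds of the genes given with counting intervals.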
